A study of Caenorhabditis elegans with 54 samples.

Results

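RNA that co-purified with ribosomes from whole Caenorhabditis elegans was compared with total RNA of the same strain. The 6 libraries are 3 of ribosome immunoprecipitation (IP) and 3 of total RNA, out of 54 libraries in 18 groups. They were chosen by their labels, as the ubiquitous IP and total RNA columns of 1 table of normalized read counts. Both groups are strain MSD470, genotype rpl-22(wbm58), in which the endogenous rpl-22 gene carries a FLAG tag in all tissues, so the total RNA animals carry the tagged allele too. All animals were day 1 adults kept at 20 °C on E. coli OP50, and the labels state that alleles were outcrossed to N2. In addition, 3 experiments serve for comparison, each with its own total RNA: polysomes of MSD470, pooled 60S, 80S and polysome fractions of MSD470, and the IP of strain WBM1364, genotype wbmIs119, in which the eft-3 promoter drives a tagged rpl-22 in the soma. Strain MSD470 carries a single tagged allele, and no untagged or mock IP was analysed here.

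RPL-22 is a protein of the large subunit of the cytosolic ribosome, so pulling on its tag brings down ribosomes together with the mRNAs they are reading. Polysomes are mRNAs carrying several ribosomes, and a sucrose gradient separates them from free subunits and single ribosomes. Mitochondria translate the mRNAs of their own genome inside the organelle, on ribosomes built from a different set of proteins. In the nematode germline many maternal mRNAs are stored in a translationally silent state by RNA-binding proteins such as GLD-1, OMA-1 and the PUF family until the embryo needs them.

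Of 16858 genes listed, 13853 had a mean of at least 10 normalized counts over the 6 libraries and were tested. Depth was read off the smallest step between values, and came to 20.2 to 34.2 in units of 1e6 reads per library, while 149 to 550 listed genes stood at 0. Across genes, log2 values correlated at 0.985 to 0.989 within the IP and at 0.970 to 0.989 within total RNA. Total RNA replicate 3 stood apart: its 100 most abundant genes held 45.8% of its sum against 35.3% and 36.5% in replicates 1 and 2, and its median log2 level over their mean was 0.94 for ribosomal protein genes and 0.80 for mitochondrially encoded genes, with -0.01 over all genes. Results that rest on it are given with and without that library. The labels do not say that replicates were separate cultures, so a p-value speaks of the spread among these 6 libraries. In whole animals, fewer cells of a type and less RNA per cell cannot be told apart. All 33 intestine, 38 body wall muscle, 20 pharynx, 36 pan-neuronal and 57 germline markers listed were above 0 in every IP library, as were 67 of 68 listed sperm genes. So were 15398 of 15870 listed protein-coding genes and 13833 of the 13853 tested genes, so these counts do not set the markers apart.

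Of the 13853 genes, 2344 (16.9%) were higher in the IP and 2832 (20.4%) lower, at a Benjamini-Hochberg adjusted p under 0.05 in limma-trend on log2 of the normalized count plus 1. The middle 50% of genes lay between log2 -0.46 and 0.49, with a median of 0.01. Log2 values of IP over total RNA are on this scale throughout, which understates changes of rare RNAs. Scaling every library to an equal sum raised the median of all genes by 0.24 and moved the share of calls that were higher from 45.3% to 68.3%, so small differences depend on the scaling. With equal sums, 16.1% of genes were higher and 7.45% lower. Every IP library stood above every total RNA library in 24.1% of genes and below in 26.1%. Without total RNA replicate 3, 3326 genes (24%) were higher and 3838 (27.7%) lower. These shares are the background for the counts of each gene list below. The shares also varied with abundance. Over 5 groups of nuclear protein-coding genes by abundance, 4.01% of the least abundant and 35.5% of the most abundant were lower. The share higher lay between 11.1% and 23.8% in these groups. None of the lists below was compared with genes of like abundance.

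The mRNAs of the mitochondrial genome were among the largest falls. All 12 mitochondrially encoded mRNAs were lower in the IP, with a median log2 of -5.93, beside 20.4% of all genes. Together they made up 3.44%, 2.96% and 3.69% of the total RNA libraries and 0.069%, 0.071% and 0.083% of the IP libraries. ND2, a subunit of respiratory complex I (mitochondrial genome, 3389 to 4269, WBcel235), stood at 147.8, 189.5 and 314.9 normalized counts in the IP and at 43350, 46760 and 140800 in total RNA. The libraries of the 2 groups were far apart, and ND2 fell by 8.31 on the log2 scale (SE 0.42, adjusted p = 1.75e-06). ATP6, a subunit of the mitochondrial ATP synthase, had 786.1, 745.3 and 1261 in the IP against 94190, 101000 and 211700 in total RNA, a log2 of -7.12 with an SE of 0.31 (adjusted p = 5.6e-07).

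The mRNAs differed among themselves in how far they fell. ND2 stood below all others, followed by the complex I subunit ND4 (log2 -7.17), by ATP6, and by ND1 (-6.88), ND6 (-6.71) and ND5 (-6.13), also of complex I. The complex IV subunit COX1 (mitochondrial genome, 7827 to 9428) had 5515, 6044 and 6380 in the IP against 225200, 220400 and 321900 in total RNA, a log2 of -5.40 (SE 0.21, adjusted p = 3.01e-07). COX2 stood at -5.72, ND4L at -5.68, CYTB of complex III at -4.83 and ND3 at -4.58. COX3 (mitochondrial genome, 5678 to 6449) fell least of the 12, with 3870, 3737 and 4286 in the IP and 68320, 67860 and 78130 in the whole lysate (log2 -4.17, SE 0.16, adjusted p = 3.01e-07). The annotated ends of ATP6 and ND1, of ND3 and ND5 and of ND4L and ND6 overlap, so reads there cannot be assigned to 1 gene. The list's median was -5.82 without total RNA replicate 3 and -5.68 with equal sums.

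**Figure D1:**
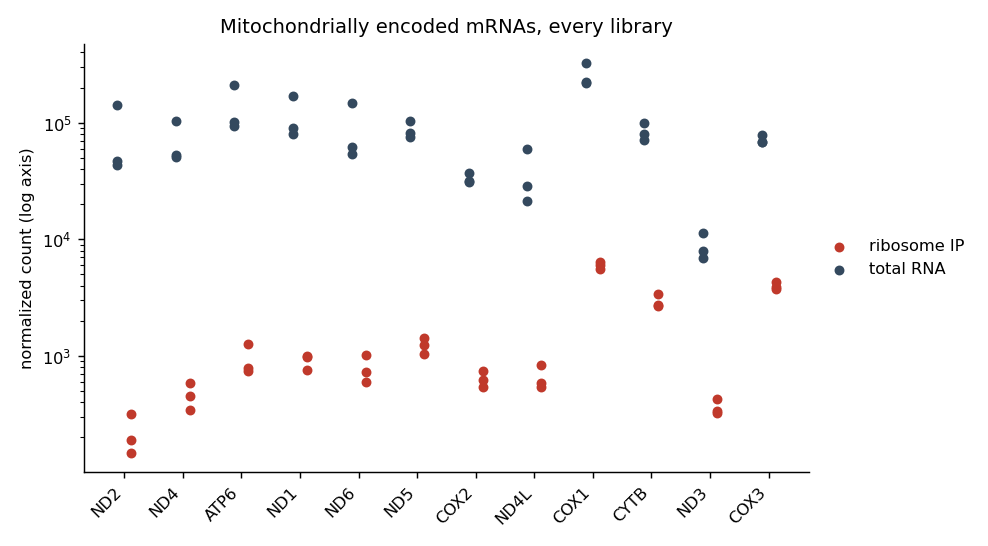
Normalized counts (log axis) of the 12 mitochondrially encoded mRNAs in each of the 3 IP libraries (red) and 3 total RNA libraries (blue), ordered from ND2 (log2 -8.31) to COX3 (log2 -4.17). In every gene all IP points lie below all total RNA points, and total RNA replicate 3 is the highest of its group.

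The mRNAs of nuclear-encoded mitochondrial proteins did not share this fall. Over all genes 16.9% were higher and 20.4% lower. Of 37 genes for subunits of the oxidative phosphorylation complexes made in the cytosol, 1 was higher and 3 lower, with a median of -0.10 that turned to 0.15 with equal sums and to 0.10 without total RNA replicate 3, where 11 were higher and 6 lower. With a block for replicate number, 1 was higher and 6 lower. Of 67 mitochondrial ribosomal protein genes, 5 were higher and 21 lower (median -0.35), or 10 lower with equal sums (median -0.11) and 10 higher and 30 lower without total RNA replicate 3. Among the most abundant of them, mrps-16 had a log2 of -0.69 (adjusted p = 0.0586, and 0.0266 with the replicate block) and mrps-5 of -0.41 (adjusted p = 0.0675, and 0.0364 with the block). Without total RNA replicate 3 these were -0.34 (adjusted p = 0.0138) and -0.27 (adjusted p = 0.0468). mrps-25 at -0.64 and mrpl-12 at -0.11 did not pass the test, and mrpl-12 turned to 0.14 with equal sums.

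The tagged gene itself, rpl-22 (WBGene00004434, chromosome II, 5055616 to 5056214, WBcel235), was measured at 253100, 238600 and 225700 in the IP and at 89510, 103800 and 213500 in total RNA. Every IP library was above every total RNA library, with replicate 3 of total RNA close to the IP. The log2 of 0.93 (SE 0.34) did not pass the test (adjusted p = 0.0575), and it did without that library (log2 1.31, adjusted p = 2.31e-07) and with equal sums (log2 1.17, adjusted p = 0.00155). C27A2.12 overlaps rpl-22 on the other strand, and the labels do not state whether counting used strand.

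Among the 82 genes of cytosolic ribosomal proteins rpl-22 ranked 2 by log2 ratio, while the median of the others was -0.17. In total the list had 1 member higher and 2 lower, below the background of 16.9% and 20.4%. The direction of the median depended on 1 library and on the scaling, since it was 0.15 without total RNA replicate 3, where 24 were higher and 4 lower, and 0.08 with equal sums, where 27 were higher and 4 lower. Taken by replicate number, the log2 of rpl-22 was 1.50, 1.2005 and 0.08, and the median of the other ribosomal protein genes was 0.29, -0.03 and -0.77. The mRNAs of the list filled 29.4%, 28.2% and 28.4% of the IP libraries and 24.6%, 25.7% and 33.5% of the total RNA libraries. The IP libraries were close to each other, and the 3 total RNA libraries lay on both sides of them.

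The 3 members that passed the test were rpl-42, rps-12 and rpl-25.1. rpl-42, of low abundance, had 109.2, 126.6 and 132.9 in the IP against 54.9, 27.34 and 66.13 in total RNA (log2 1.38, adjusted p = 0.00685). rps-12, of the small subunit, had 55530, 46790 and 50440 against 95250, 121500 and 302000 (log2 -1.58, adjusted p = 0.00949, and log2 -1.08 without total RNA replicate 3). rpl-25.1 had 12080, 9294 and 9000 against 15800, 18700 and 30030 (log2 -1.04, adjusted p = 0.00792). In each of the 3 genes the groups did not overlap. Of the 4 most abundant members, the stalk protein gene rla-0 stood at -0.78 (adjusted p = 0.0778, and -0.46 with adjusted p = 0.0102 without total RNA replicate 3), rpl-41.2 at -0.85 (adjusted p = 0.143) and rps-25 at -0.33 (adjusted p = 0.537, and 0.14 without total RNA replicate 3).

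**Figure D2:**
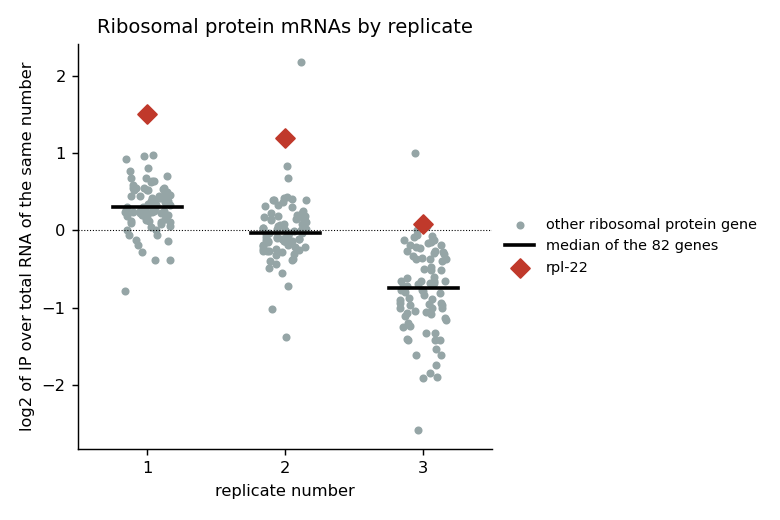
Log2 of IP over the total RNA of the same replicate number for 82 ribosomal protein genes (grey points, black bars: median) and rpl-22 (red). rpl-22 lies above the median in each replicate (1.50, 1.2005 and 0.08), and the median of the other genes is lowest in replicate 3 (-0.77).

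Of 39 initiation factor genes, 18 (46.2%) were lower and 1 higher (median -0.34), beside 20.4% and 16.9% of all genes. With equal sums 8 were lower and 1 higher (median -0.09), beside 7.45% and 16.1%. eif-1.A, which promotes scanning by the small subunit, was the one that rose, with 26260, 26430 and 24970 in the IP against 14170, 16450 and 20410 in total RNA (log2 0.62, adjusted p = 0.0239). inf-1, the helicase eIF4A, had 18290, 17170 and 16700 against 25580, 27550 and 29460 (log2 -0.66, adjusted p = 0.0106, and 0.0545 with equal sums). pab-1, the poly(A)-binding protein, had a log2 of -0.52 (adjusted p = 0.0437), which did not pass with the replicate block (adjusted p = 0.0679) or with equal sums (adjusted p = 0.273). The calls of eif-1.A and pab-1 were lost when any 1 IP library or total RNA replicate 2 was left out, and that of inf-1 when any 1 IP library was. ife-1, an eIF4E cap-binding protein, stood at -0.03, or 0.22 with equal sums.

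Of 11 elongation and termination factors, 3 (27.3%) were lower and 0 higher (median -0.46), beside 20.4% and 16.9% of all genes. Without total RNA replicate 3, 7 were lower and 1 higher. Of 32 aminoacyl-tRNA synthetase genes, 4 were higher and 6 lower, near the background of 16.9% and 20.4%, with a median of -0.11 that turned to 0.14 with equal sums. Without total RNA replicate 3, 5 of them were higher and 12 lower, beside 24% and 27.7% of all genes. Of 22 tested chaperonin and heat shock genes, 11 were lower and 2 higher (median -0.52, and -0.28 with equal sums).

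Maternal mRNAs that are known to be translationally repressed in the germline were lower in the IP. Of the 28 on the list, 16 (57.1%) fell and 0 rose, with a median of -0.76, beside 20.4% and 16.9% of all genes. With equal sums the median was -0.51 and 9 were lower, beside 7.45% of all genes, and without total RNA replicate 3 the median was -0.89 and 22 were lower. Their total RNA level was lower in replicate 3 than in the mean of the other replicates, by a median log2 of -0.52. nos-2, a Nanos-family regulator of primordial germ cells (chromosome II, 7065618 to 7067051), stood at 711.8, 937.4 and 803.4 in the IP and 4173, 5663 and 5344 in total RNA. The 2 groups were well apart, and nos-2 fell by 2.63 on the log2 scale (SE 0.17, adjusted p = 8.21e-06). pal-1, a Caudal-family homeobox gene named after its value was seen, had a log2 of -1.997 (adjusted p = 0.000115).

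The 4 most abundant of these mRNAs all fell. spn-4, an RNA-binding protein of the early embryo, had 3112, 4071 and 3450 in the IP against 12540, 15070 and 8413 in total RNA (log2 -1.73, adjusted p = 0.000302). puf-5, a Pumilio-family repressor in oocytes, had 5870, 7022 and 5900 against 17400, 22480 and 17230 (log2 -1.60, adjusted p = 0.000132). pos-1, a zinc-finger protein that specifies posterior fates, had 3649, 4584 and 3877 against 9727, 12570 and 8333 (log2 -1.32, adjusted p = 0.000497), and rme-2, the yolk receptor of oocytes, had a log2 of -1.01 (adjusted p = 0.00155). In each of these 4 genes the groups did not overlap. Of 3 further members, named after their values were seen, the Notch receptor gene glp-1 stood at -0.07 (adjusted p = 0.868) and oma-2 at -0.09 (adjusted p = 0.751). oma-1, a relative of oma-2, fell, with -0.87 (adjusted p = 0.0067, and 0.197 with equal sums).

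The wider list of germline and oocyte genes, which shares 15 members with the maternal list, showed 32 of 57 lower and 3 higher (median -0.65). Over all genes 20.4% were lower and 16.9% higher. With equal sums 19 were lower and 5 higher (median -0.40), and without total RNA replicate 3 43 were lower and 5 higher. cpg-2, an eggshell proteoglycan, had 17170, 20980 and 16920 in the IP against total RNA values of 37630, 50390 and 53120 (log2 -1.35, adjusted p = 0.000779). The RNA helicase gene cgh-1 had a log2 of -1.25 (adjusted p = 0.000447). The Y-box gene cey-2 had a log2 of -0.90 (adjusted p = 0.0113), and its call was lost without any 1 IP library or total RNA replicate 2. car-1, whose protein accompanies CGH-1 in RNA granules, stood at 31770, 34720 and 33210 in the IP against 29070, 33420 and 30680 in total RNA, with overlapping groups (log2 0.10, adjusted p = 0.692). Of 27 germ granule genes, 10 were lower and 1 higher (median -0.32), or 5 and 2 with equal sums and 16 and 2 without total RNA replicate 3.

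Sperm genes went the other way. Of 64 tested of 68 listed, 19 (29.7%) were higher and 3 lower (median 0.34), beside 16.9% and 20.4% of all genes. Without total RNA replicate 3, in which these RNAs were more abundant by a median log2 of 0.85, 52 were higher and 3 lower (median 0.61), and with equal sums 42 were higher and 0 lower. The 4 most abundant are genes of the major sperm protein, the cytoskeletal protein of nematode sperm. msp-19 had 21760, 19640 and 21360 in the IP against 12660, 12190 and 22340 in total RNA, so that total RNA replicate 3 overlapped the IP (log2 0.47, adjusted p = 0.147, and 0.75 with adjusted p = 8.65e-06 without that library). msp-51 stood at 0.31, msp-59 at 0.29 and msp-81 at -0.24, which turned to 0.15 without that library. Major sperm protein genes are near-identical copies, so their single values are uncertain.

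The vacuolar ATPase, the proton pump that acidifies lysosomes and other compartments, also had lower mRNAs in the IP. Of its 21 subunit genes, 15 (71.4%) fell and 0 rose, with a median of -0.74, beside 20.4% and 16.9% of all genes. Without total RNA replicate 3 16 were lower and 1 higher, and with equal sums 10 were lower and 1 higher (median -0.49). vha-13, the catalytic A subunit of the peripheral sector (chromosome V, 14351709 to 14354422), had 6965, 7093 and 7376 in the IP against total RNA values of 14780, 16180 and 17840 (log2 -1.18, SE 0.15, adjusted p = 0.000327). vha-8, the E subunit, had 7629, 7521 and 7444 against 12040, 12570 and 13170 (log2 -0.74, adjusted p = 0.0029). Both showed tight libraries in each group and no overlap. vha-2, a proteolipid subunit, stood at -0.48 (adjusted p = 0.0508, and 0.00801 without total RNA replicate 3), and vha-10, the G subunit, at 0.27 (adjusted p = 0.184, and 0.0115 without that library).

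Of 32 proteasome genes, 13 (40.6%) were lower and 0 higher (median -0.30), beside 20.4% and 16.9% of all genes. In the most abundant of 5 groups of nuclear protein-coding genes, 35.5% were lower and 11.1% higher (median -0.26), so the share lower was near that of abundant genes. With equal sums 4 were lower and 2 higher (median -0.05), beside 7.45% and 16.1%. The most abundant, the ATPase subunit rpt-2 at 0.36 and the core subunits pas-2 at 0.10, pas-3 at -0.14 and pbs-1 at -0.10, did not pass the test, and pas-3 and pbs-1 turned to 0.10 and 0.15 with equal sums. Of 61 tested histone genes of 76 listed, 25 were lower and 5 higher (median -0.47), or 14 and 9 with equal sums and 22 and 11 without total RNA replicate 3, in which their median level was higher by 0.77. Histone mRNAs come from near-identical gene copies, so single members are uncertain. Of 35 splicing and mRNA surveillance genes, 9 (25.7%) were lower and 1 higher, with a median of -0.03 that turned to 0.22 with equal sums. Without total RNA replicate 3, 13 were lower and 7 higher, beside 27.7% and 24% of all genes.

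Nuclear hormone receptors, ligand-regulated transcription factors that form a large family in nematodes, had one of the larger shares of higher genes. Of 150 tested of 193 listed, 49 were higher and 4 lower, which is 32.7% against the background of 16.9%. The share was 31.6% for body wall muscle genes and 29.7% for sperm genes, both of which had larger shares than the receptors with equal sums and without total RNA replicate 3. The median of the receptors was 0.57, or 0.81 with equal sums, and 0.49 without total RNA replicate 3, where 57 were higher and 8 lower; with equal sums 39 were higher and 2 lower. nhr-114, a receptor related to HNF4 (chromosome V, 4187202 to 4190008), was the most abundant member and rose the most, with 6064, 6397 and 7105 in the IP against 993.5, 1045 and 1531 in total RNA, 5.48-fold by the means (log2 2.48, SE 0.18, adjusted p = 1.96e-05). The 3 members next in abundance did not rise. nhr-97 had 622.2, 613.2 and 723.4 against 2361, 2218 and 2494 (log2 -1.85, adjusted p = 2.03e-05), and nhr-86 had a log2 of -1.32 (adjusted p = 0.000371). nhr-66 stood at -0.43 (adjusted p = 0.122, and -0.67 with adjusted p = 7.31e-05 without total RNA replicate 3). Among all nuclear protein-coding genes, groups 1 and 2 of 5 from the least abundant had 13.3% and 23.8% higher (medians 0.26 and 0.27). The receptors were not compared with genes of like abundance.

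Medians of somatic tissue lists lay nearer to that of all genes, of which 16.9% were higher and 20.4% lower. Intestine genes had 6 of 33 higher and 6 lower (median 0.04), or 12 and 8 without total RNA replicate 3, body wall muscle genes 12 of 38 higher and 7 lower (median 0.12), and pharynx genes 4 of 19 higher and 2 lower (median 0.24). Pan-neuronal genes had 5 of 35 higher and 3 lower, with a median of -0.05 that turned to 0.19 with equal sums, and 7 higher and 5 lower with the replicate block. Of 122 neuropeptide genes, 11 were higher and 23 lower, or 30 and 27 without total RNA replicate 3, and their median of -0.12 turned to 0.11 with equal sums. Collagens of the cuticle had 7 of 132 higher and 0 lower (median 0.09), while 44 were higher and 0 lower without total RNA replicate 3, and 13 higher and 5 lower with the replicate block. The most abundant collagens, col-124 (0.26), col-93 (0.22), col-20 (0.04) and col-122 (-0.05, or 0.20 with equal sums), did not pass the test. Of 19 glycolysis genes, 0 were higher and 1 lower, and their median of -0.20 turned to 0.04 with equal sums.

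**Figure D3:**
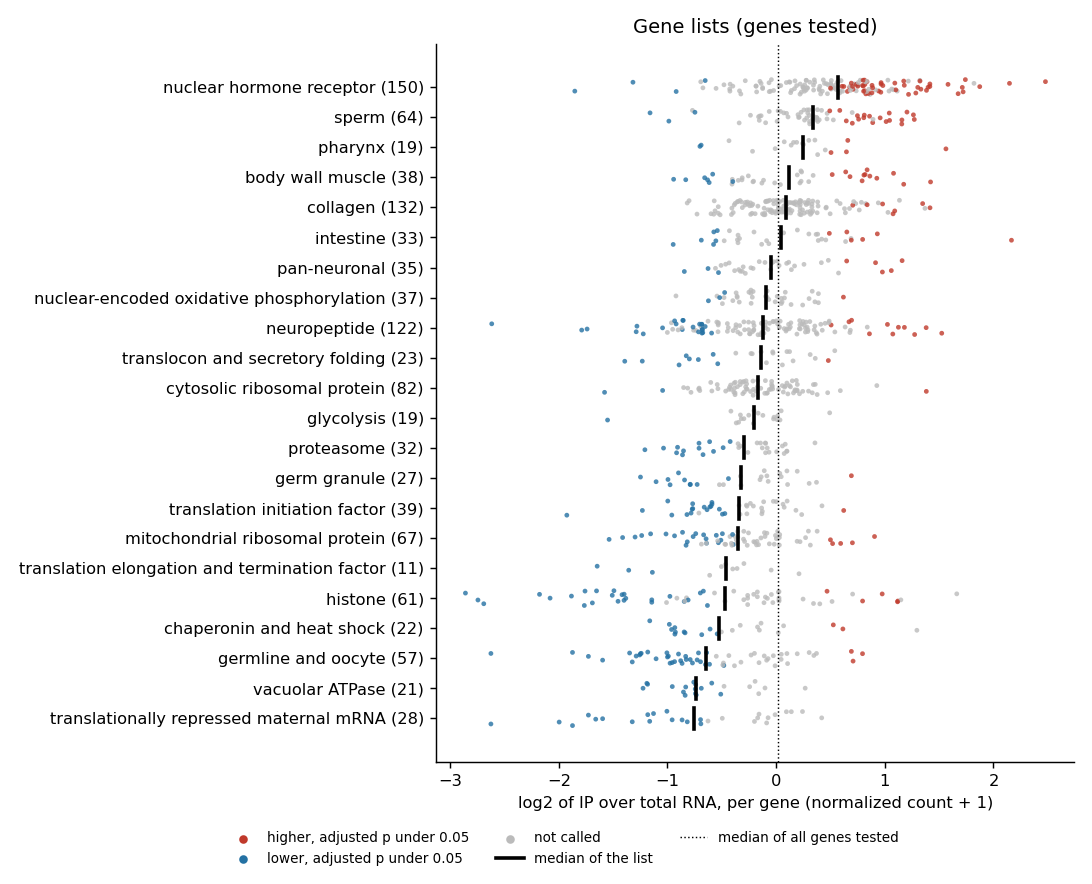
Log2 of IP over total RNA for every tested gene of 22 lists (number tested in brackets), from nuclear hormone receptors (median 0.57) to repressed maternal mRNAs (median -0.76). Red points were higher and blue points lower at an adjusted p under 0.05, grey points were not called, black bars are list medians, and the dotted line is the median of all genes tested (0.01).

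Of the genes outside the lists, rpa-4, related to replication protein A, which binds single-stranded DNA (chromosome I, 5509467 to 5511705), had 331.8, 357.5 and 374.9 in the IP against 33.35, 72.94 and 39.08 in total RNA, 7.32-fold by the means (log2 2.93, SE 0.27, adjusted p = 6.74e-05). taf-3, a subunit of the general transcription factor TFIID, had 489.6, 447.3 and 371.7 against 90.88, 105.4 and 80.49 (log2 2.23, adjusted p = 3.32e-05). cec-1, a chromodomain protein, had 1231, 1071 and 1083 against 344.7, 331.6 and 276.3 (log2 1.83, adjusted p = 3.22e-05). In these 3 genes no libraries of the groups overlapped. Other large rises were those of the ATRX-family chromatin remodeller xnp-1 (log2 1.72, adjusted p = 0.000215), the chromatin assembly factor gene chaf-1 (1.68, adjusted p = 0.000787) and the splicing factor gene sluh-7 (1.67, adjusted p = 0.000174). In polysomes of this strain the log2 over their own total RNA was 0.22 for taf-3 and 1.29 for cec-1. There xnp-1 stood at 0.27, chaf-1 at -0.30 and sluh-7 at -0.09. Mean total RNA counts of these genes were higher in that experiment, as with 7074 against 617.5 for xnp-1, though the experiments were normalized separately. The cause was not tested.

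The remaining large rises were pqn-15 (log2 2.29, adjusted p = 0.000114), let-504 (1.85), gpch-1 (1.85) and che-10 (1.86), the last a rootletin-like protein of sensory cilia. In polysomes pqn-15 stood at 0.48, let-504 at -0.26, gpch-1 at 0.27 and che-10 at 1.22, again over their own total RNA. pud-1.1 stood at 993.1, 796.6 and 936.9 in the IP and was listed at 0 in every total RNA library. It has a near-identical copy, pud-1.2, with 1465, 2130 and 1718 against 2174, 2632 and 3412. The sum of both copies was 2458, 2927 and 2655 in the IP and 2174, 2632 and 3412 in total RNA, with overlapping groups, so the value of pud-1.1 is uncertain and no fold is given.

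The largest falls of nuclear genes are described next; they were chosen after their values were seen, since mitochondrially encoded mRNAs filled the places of the naming rule. exos-4.2, a subunit of the RNA exosome, had 500.5, 505.1 and 537.6 in the IP against 2811, 3490 and 4219 in total RNA (log2 -2.75, adjusted p = 5.7e-06). acl-3, an acyltransferase gene, had 343.5, 333.2 and 349.8 against 2197, 2347 and 2024 (log2 -2.67, adjusted p = 1.74e-06). taf-5, another TFIID subunit, had 233.5, 223.7 and 223.3 against 1653, 1604 and 1177 (log2 -2.68, adjusted p = 6.81e-06), opposite in direction to taf-3. The PDZ-domain gene lin-7 (log2 -2.61), mics-1 (-2.65), bath-5 (-2.72), the neuropeptide gene nlp-17 (-2.62) and the histone gene his-61 (-2.74) followed, with lin-7 and 2 others of its locus overlapping in the annotation.

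Of the noncoding RNAs tested, more were lower than higher. Over all genes 20.4% were lower and 16.9% higher. Of 83 tested genes of the ncRNA biotype, 36 were lower and 6 higher (median -0.68), of 44 long intergenic noncoding RNAs (lincRNAs) 16 were lower and 5 higher (median -0.61), and of 13 small nucleolar RNAs 6 were lower and 1 higher (median -2.32). Without total RNA replicate 3 these counts were 34 and 12, 14 and 7, and 8 and 1. T05E11.9 had 210.6, 218.6 and 214.7 in the IP against 10390, 10720 and 32580 in total RNA (log2 -6.16, adjusted p = 5.37e-06, and log2 -5.61 without total RNA replicate 3). C36C9.10 had 1403, 1676 and 1935 against 22330, 28060 and 133200 (log2 -4.72, adjusted p = 0.000179, and -3.92 without total RNA replicate 3). W05H9.3 stood at -4.003 (adjusted p = 5.19e-07) and R106.8 at -2.19 (adjusted p = 1.1e-05). In all 4 the groups were separate.

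Noncoding RNAs with known roles were among them. lep-5, which helps to time the maturation of the nervous system, had 1373, 1266 and 1216 in the IP against 7805, 7013 and 12690 in total RNA (log2 -2.79, adjusted p = 2.24e-05). rncs-1, an inhibitor of Dicer, had 163.6, 198 and 227.9 against 1101, 1478 and 4826 (log2 -3.34, adjusted p = 0.000373). tts-1, an RNA studied in long-lived mutants, had 71.25, 96.51 and 169.7 against 485.2, 1220 and 3446 (log2 -3.58, SE 0.58, adjusted p = 0.00117). The total RNA libraries of tts-1 were far apart, and replicate 3 was the highest for all 3 of these genes. Without it the log2 values were -2.53, -2.71 and -2.86.

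Small nucleolar RNAs guide the modification of ribosomal RNA in the nucleolus. C14E2.12 had 124.2, 167.3 and 234.6 in the IP against 1681, 1910 and 7681 in total RNA (log2 -4.09, adjusted p = 0.000231, and log2 -3.39 without total RNA replicate 3). F54F11.6 stood at -5.54 and W08G11.6 at -2.72, while K10D3.10 was at 0.07 (adjusted p = 0.827). On the same strand, F54F11.6 overlaps the gene sre-45, W08G11.6 overlaps W08G11.3, and K10D3.10 overlaps hpo-11 and K10D3.4. Reads there cannot be assigned to 1 gene, so these values are uncertain. lincRNAs were uneven: linc-9 rose, with 125.9, 146.5 and 119.3 against 38.9, 38.6 and 26.45 (log2 1.90, adjusted p = 0.000302). linc-7 stood at 0.38 (adjusted p = 0.105), linc-4 at -0.22, or 0.02 with equal sums, and linc-168 at -0.65 (adjusted p = 0.204, and 0.0411 with the replicate block). Of the 4 antisense RNAs tested, anr-8 (1.42) and anr-35 (1.07) were higher, ZK822.8 (-1.47) was lower and F19C6.8 (0.18) did not pass the test. All of these overlap genes on the other strand, and without strand their reads cannot be told from those of the partner. The call of anr-35 was lost without any 1 IP library or total RNA replicate 1.

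Of 349 pseudogenes tested, by contrast, 33.2% were higher and 11.2% lower, with a median of 0.62. The most abundant pseudogenes did not follow: WBGene00014307 had 952.4, 914.8 and 887.2 in the IP against 4514, 4332 and 7821 in total RNA (log2 -2.54, adjusted p = 3.6e-05). WBGene00014309 stood at -1.47 and WBGene00014667 at -1.54, both past the threshold, and WBGene00023209 at 0.15 (adjusted p = 0.482). Reads of a pseudogene may be shared with its parent gene, so these values are uncertain.

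The log2 ratio varied across genes with the length of parts of the mRNA and with abundance. Genes are not independent replicates, and these relations are given without a test. Among 12416 nuclear protein-coding genes with an annotated 3′ UTR, the median log2 went from 0.21 in the shortest of 5 groups by length (3′ UTRs up to 68 bases) through 0.06, 0.00 and -0.07 to -0.21 in the longest (303 bases or more). The share of genes lower in the IP rose from 8.87% to 32.5% along the same order, and the share higher went from 22.6% to 11.03%. Abundance moved with the ratio as well: over 5 groups from the least to the most abundant genes the medians were 0.26, 0.27, 0.02, -0.23 and -0.26. Split at the median abundance, the less abundant genes ran from 0.30 to 0.15 and the more abundant genes from 0.01 to -0.45 along the 3′ UTR order. Without total RNA replicate 3 the medians over all these genes ran from 0.25 to -0.29. For coding length the medians from shortest to longest were 0.08, -0.01, -0.05, -0.06 and 0.06, and 0.22, 0.04, -0.04, -0.10 and -0.07 without total RNA replicate 3.

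**Figure D4:**
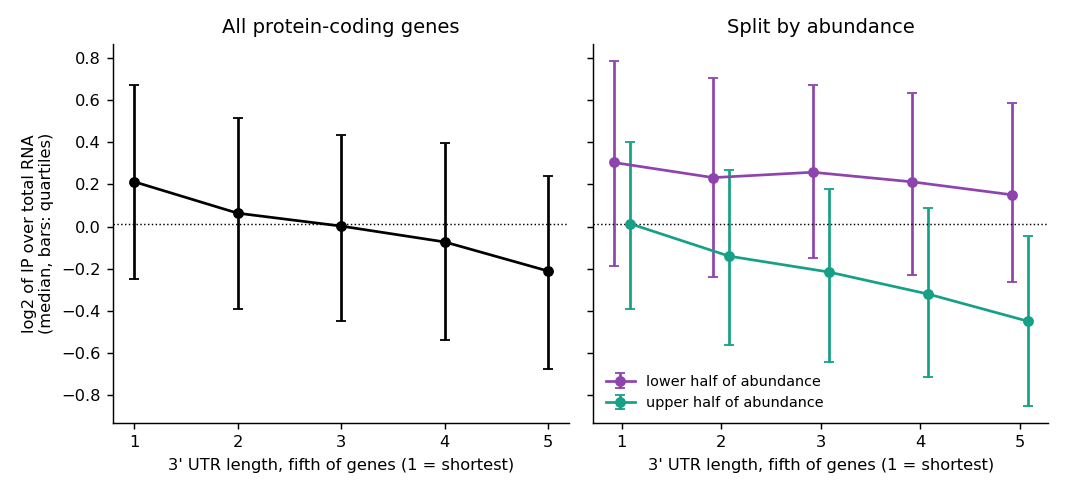
Median log2 of IP over total RNA (points; bars: quartiles) in 5 groups by annotated 3′ UTR length, for all nuclear protein-coding genes (left) and split at the median abundance (right). The medians go down from 0.21 to -0.21 over all genes, from 0.30 to 0.15 in the less abundant genes and from 0.01 to -0.45 in the more abundant ones.

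The IP was next set against the other ribosome fractions, by the interaction term of a fit over the 12 libraries of a pair of experiments, that is, the log2 of IP over its total RNA minus the log2 of the other fraction over its own total RNA. Against polysomes of the same strain 3071 genes (22.5%) had a higher ratio in the IP and 3080 (22.5%) a lower one, of 13662, together 45%. Against the pooled 60S, 80S and polysome fractions these were 1612 (11.8%) and 1631 (11.9%) of 13685, together 23.7%. Against the soma IP they were 4000 (29.1%) and 2781 (20.2%) of 13764, together 49.3%. These shares are the background for the list counts of each comparison below. The experiments share no total RNA libraries, and their tables were normalized separately.

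All 12 mitochondrially encoded mRNAs had a lower ratio in the ubiquitous IP than in each of the other 3 fractions, with and without total RNA replicate 3 and with equal sums. Their medians were -5.93 in the IP, -2.55 in polysomes, -1.01 in the pooled fractions and -2.74 in the soma IP. The total RNA libraries differed here too. As a share of a library, these mRNAs held 2.96% to 3.69% of the total RNA of the IP experiment, 0.559% to 1.11% of that of the polysome experiment, 0.754% to 1.06% of that of the pooled fractions and 0.907% to 2.07% of that of the soma IP. In the fractions themselves they held 0.069% to 0.083% of the IP, 0.102% to 0.246% of polysomes, 0.480% to 0.754% of the pooled fractions and 0.172% to 0.360% of the soma IP. The IP was thus the lowest of the 4 fractions and its total RNA the highest of the 4 totals.

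Genes with large positive differences also had unlike total RNA levels. rpa-4 had a log2 of 2.93 in the IP against -2.34 in polysomes (difference 5.27, adjusted p = 6.21e-07), -1.03 in the pooled fractions (3.95, adjusted p = 3.9e-07) and -1.91 in the soma IP (4.84, adjusted p = 1.94e-05). Per 1e6 of a library's sum, rpa-4 stood at 13.1, 13.98 and 14.4 in the IP and 6.34, 8.80 and 9.43 in polysomes, and at 1.35, 2.57 and 0.975 in the total RNA of the IP experiment but 43.8, 53.3 and 50.6 in that of the polysome experiment. Most of the difference in ratio from polysomes was thus a difference between the total RNA libraries of the same strain. In the pooled fractions rpa-4 stood at 21.4, 25.6 and 26.4, above the IP.

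nhr-114 was likewise higher in the IP than in polysomes and lower in its total RNA, at 239, 250.2 and 274 per 1e6 in the IP and 134, 160 and 159 in polysomes, with 40.2, 36.7 and 38.2 in the IP's total RNA and 260, 299 and 255 in that of polysomes. Its log2 was 2.48 in the IP and -0.26 in the pooled fractions (difference 2.73, adjusted p = 1.27e-06). nhr-76 also differed from the pooled fractions (1.41 against -0.59, difference 2.01, adjusted p = 1.24e-05). Against polysomes the cell adhesion gene rig-6 (1.53 against -1.85, difference 3.38, adjusted p = 2.84e-05) and the splicing-related gene rbm-25 (1.55 against -1.54, difference 3.10, adjusted p = 4.77e-05) followed rpa-4. rbm-25 stood at 18.1, 17.2 and 5.36 per 1e6 in the IP's total RNA and at 226, 203 and 242 in that of polysomes. Against the soma IP the cytochrome c gene cyc-2.2 (1.34 against -2.52, difference 3.86, adjusted p = 0.00209) and the transcription elongation gene tcer-1 (1.21 against -2.14, difference 3.36, adjusted p = 0.000421) followed.

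Repressed maternal mRNAs had a higher ratio in the IP than in polysomes in 21 of 28 cases, with medians of -0.76 and -1.91. That count was 18 without total RNA replicate 3 and 20 with equal sums. nos-2 stood at -2.63 in the IP and -3.76 in polysomes (difference 1.14, adjusted p = 0.00499), spn-4 at -1.73 and -2.97 (1.24, adjusted p = 0.0223) and pos-1 at -1.32 and -2.44 (1.12, adjusted p = 0.0142). The fall of these mRNAs was thus larger in polysomes. Against the pooled fractions, with a median of -0.95, 5 were higher and 1 lower, or 2 and 2 without total RNA replicate 3 and 1 and 0 with equal sums. The list held 0.220% to 0.457% of the IP's total RNA libraries and 1.07% to 1.17% of those of polysomes, and 0.196% to 0.232% of the IP and 0.134% to 0.332% of polysomes.

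Ribosomal protein mRNAs had a lower ratio in the IP than in polysomes in 64 of 82 cases (median 1.22 in polysomes), or 48 without total RNA replicate 3 and 62 with equal sums. Against the pooled fractions (median 0.50) 7 were lower, or 9 without that library and 23 with equal sums. Against the soma IP (median -1.27) 41 were higher, or 72 without that library and 68 with equal sums. They held 12.2% to 14.3% of the total RNA of the polysome experiment, less than the 24.6% to 33.5% of the IP's total RNA. In the fractions they held 28.2% to 29.4% of the IP and 29.9%, 21.17% and 21.15% of polysome replicates 1, 2 and 3. Their share of the IP was thus above that of polysome replicates 2 and 3 and below that of replicate 1. rpl-22 itself did not pass the test in any of the 3 comparisons, with differences of -0.54 against polysomes (adjusted p = 0.365), 0.05 against the pooled fractions (adjusted p = 0.942) and 0.38 against the soma IP (adjusted p = 0.479).

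Nuclear hormone receptors had a higher ratio than in polysomes in 69 of 150 genes (median -0.42 in polysomes) and than in the pooled fractions in 51 (median -0.26). They held 0.0885% to 0.0928% of the IP, 0.0581% to 0.0943% of polysomes and 0.111% to 0.140% of the pooled fractions. Their total RNA shares were unlike, at 0.0414% to 0.0706% for the IP, 0.150% to 0.170% for polysomes and 0.155% to 0.170% for the pooled fractions. Against the soma IP, whose median was 0.61, 10 receptors were higher and 7 lower, both shares below the background of 29.1% and 20.2%. Vacuolar ATPase genes were lower than in polysomes in 18 of 21 cases (median 0.35), but in 4 with equal sums, lower than in the pooled fractions in 9 (median 0.00), or 2 with equal sums, and lower than in the soma IP in 18 (median 0.96). Genes of oxidative phosphorylation were lower than in polysomes in 35 of 37 cases (median 1.05). Pseudogenes were higher than in polysomes in 264 of 344 cases, with medians of 0.62 and -1.65, beside 22.5% of all genes. The total RNA shares of pseudogenes were not compared between the experiments.

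The soma strain is labelled as carrying the tag in the soma, and the medians of the germline, maternal and sperm lists were lowest there. This was not particular to those lists. Ribosomal protein (-1.27), initiation factor (-1.22) and proteasome genes (-1.21) were also lowest in the soma IP, as was the median of all genes (-0.32). Of 57 germline and oocyte genes 43 had a higher ratio in the ubiquitous IP than in the soma IP (median -2.28 in the latter), and of 63 sperm genes 51 had (median -1.81). Repressed maternal mRNAs were higher in 16 of 28 cases (median -2.25), or 11 without total RNA replicate 3 of the ubiquitous experiment. Without that library the germline and sperm counts were 38 and 52. Over all genes 29.1% were higher and 20.2% lower in this comparison. In the other direction, 21 of 33 intestine genes and 102 of 122 neuropeptide genes had a lower ratio in the ubiquitous IP.

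**Figure D5:**
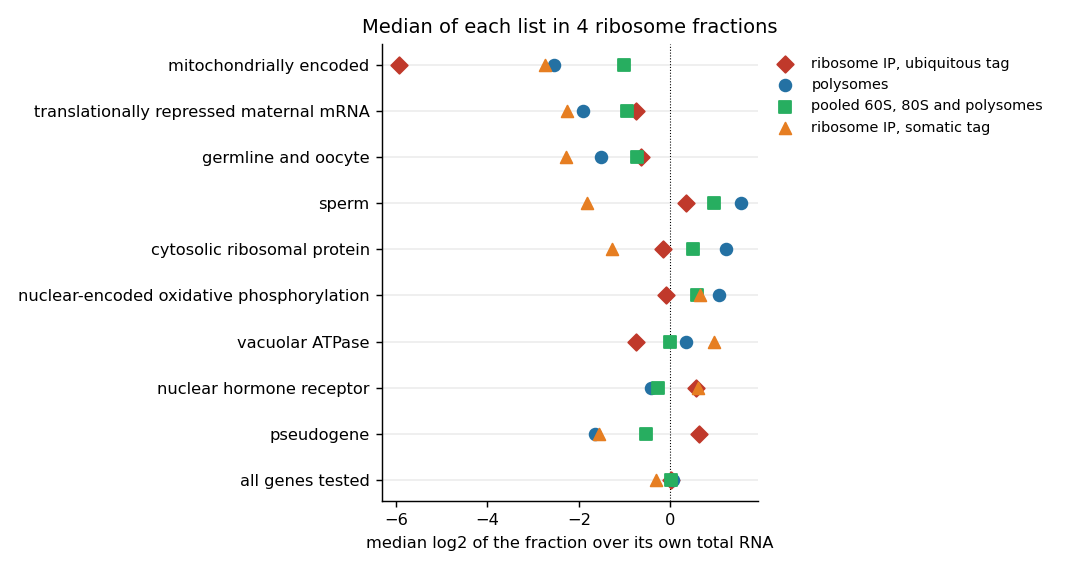
Median log2 of each fraction over its own total RNA for 9 gene lists and all genes tested, in the ubiquitous IP (red), polysomes (blue), pooled 60S, 80S and polysomes (green) and the soma IP (orange). Mitochondrially encoded mRNAs are lowest in the ubiquitous IP (-5.93), while germline and sperm genes are lowest in the soma IP (-2.28 and -1.81). Ribosomal protein genes (-1.27) and all genes tested (-0.32) are lowest in the soma IP as well.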

How the data were processed

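The authors deposited, for each gene and library, normalized counts (a signal that is not whole numbers), scaled within each table. The submitters' processing notes name genome build ce11, R 4.0.4, DESeq2 1.30.1 and kallisto 0.46.1 without saying what each was used for; the IP protocol and strandedness are not given in the sources used here. The authors' deposited log2 fold changes with their errors, test statistic (a score), p-values and −log10 of adjusted p-values served as an alternative only. No per-sample column was left without a sample (0 columns).

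Log2 of the normalized count plus 1 was fitted by limma-trend (limma 3.58.1, R 4.3.3) for genes averaging 10 or more in each table fitted, and p-values were adjusted over all of these by Benjamini-Hochberg, for the 3 IP against 3 total RNA libraries and as interactions over 12 libraries; tests are two-sided. Tables and plots used Python 3.11.15, numpy 2.4.6, pandas 2.3.3 and matplotlib 3.10.9, and the fits were tested on simulated data. There, IP against total RNA called 30% of 2-fold and 72% of 4-fold changes. The shares were 18% and 64% against polysomes, 29% and 76% against the pooled fractions and 5% and 47% against the soma IP. A gene that did not pass may therefore still have changed. Gene symbols and positions come from Ensembl release 115 of WBcel235, in which 16836 of 16858 listed genes have an entry; of the listed genes, 106 share identical values with another gene. Named genes were rpl-22, the 12 largest changes in each direction (past the threshold, separate groups, a mean of at least 200 and a symbol), the 4 most abundant members of each described list and noncoding biotype, all mitochondrially encoded genes, and the 3 largest differences in each direction per interaction. The members, gene lists and tests were chosen with earlier results of these data known. Deviations of IP and total RNA libraries of the same replicate number from their group means correlated at 0.239, 0.265 and 0.187 across genes, and each library correlated best with its own number, so a replicate block was run as a paired alternative.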

Additional observations from a re-analysis of the deposited data

Results flagged for a closer look

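Differences between the IP and another ribosome fraction, each over its own total RNA, were listed where the interaction term passed an adjusted p of 0.05 in limma-trend. Against polysomes 6151 genes did, against the pooled fractions 3243 and against the soma IP 6781. Among the genes named by rule, the log2 difference from polysomes was 5.27 for rpa-4, 3.38 for rig-6, 3.10 for rbm-25, -5.11 for ND2, -4.54 for ND4 and -4.41 for ATP6. From the pooled fractions it was 3.95 for rpa-4, 2.73 for nhr-114, 2.01 for nhr-76, -6.83 for ND2, -6.37 for ATP6 and -5.93 for ND4. From the soma IP it was 4.84 for rpa-4, 3.86 for cyc-2.2, 3.36 for tcer-1, -5.11 for ND2, -4.07 for ATP6 and -3.87 for ND4. Groups of 3 libraries were too small for a check of single outlying samples. In each of these genes other than cyc-2.2 the total RNA of the IP experiment stood apart from that of polysomes, as the values per 1e6 show for rpa-4, nhr-114 and rbm-25.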

How the results depend on the processing

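Counts of higher and lower genes stayed within 1.5 times of the values given under other pseudocounts, no filter on low values, a robust fit, the authors' deposited test and the replicate block. For IP against total RNA the count of higher genes was 1511 with a mean of at least 100, and lower genes were 1032 with equal sums and 1135 with equal sums of nuclear genes, a scaling added after the data were seen. Leaving out single libraries gave 1375 to 3326 higher and 1924 to 3838 lower. Against polysomes, lower genes were 1237 and 1342 under the 2 scalings, and leaving out libraries gave 2523 to 3205 higher and 2439 to 3080 lower. Against the pooled fractions, higher genes were 1064 with a mean of at least 100, lower genes were 491 and 570 under the 2 scalings, and leaving out libraries gave 1069 (without pooled total RNA replicate 3) to 1816 higher and 1136 to 1942 lower. Against the soma IP the ranges were 3221 to 4309 and 2254 to 2754. With the replicate block, IP against total RNA gave 2734 higher and 3185 lower genes; of the named genes it ended the call of pab-1, added those of linc-168, mrps-16 and mrps-5, and changed no other call. None of the genes that changed sign had passed the test. Under equal sums and equal sums of nuclear genes they were col-122 (0.20 and 0.15), ife-1 (0.22 and 0.17), mrpl-12 (0.14 and 0.0913), pas-3 (0.10 and 0.0552) and pbs-1 (0.15 and 0.10), with linc-4 (0.0238) and msp-81 (0.0110) under equal sums. Leaving out single libraries gave -0.12 to 0.21 for K10D3.10, -0.34 to 0.30 for col-122, -0.21 to 0.35 for col-20, -0.24 to 0.25 for ife-1, -0.55 to 0.20 for linc-4, -0.34 to 0.19 for mrpl-12, -0.45 to 0.15 for msp-81, -0.0552 to 0.27 for pas-2, -0.29 to 0.0226 for pas-3, -0.25 to 0.0661 for pbs-1 and -0.63 to 0.14 for rps-25. Causes were not tested. The depth of a library is an estimate, and 3 libraries a group limit the precision.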

Other observations

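Genes of the X chromosome, which is silenced in much of the germline, were lower in the IP less often than autosomal genes. Of 1867 tested protein-coding genes of the X, 16.3% were higher and 11.3% lower, whereas 26.5% of those of chromosome III, 24.99% of chromosome I and 17.3% of chromosome V were lower. X genes held 8.19% to 8.94% of the IP libraries and chromosome III genes 20.2% to 20.3%. From the least to the most abundant of 5 groups of genes, the share lower went from 4.01% to 35.5%. Chromosomes were not compared at like abundance, and the cause was not tested. Annotated 5′ UTR length ran opposite to 3′ UTR length: the medians from the shortest to the longest of 5 groups were -0.12, -0.08, 0.03, 0.13 and 0.10. These are counts and medians over genes, given without a test.

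Of 45 chemoreceptor genes tested of 139 listed, 6 (13.3%) were higher and 10 (22.2%) lower (median 0.01), near the background of 16.9% and 20.4%. Without total RNA replicate 3, 12 were higher and 13 lower, beside 24% and 27.7% of all genes. Lectin, lysozyme and saposin-like genes, many of which respond to bacteria, had 10 of 126 higher and 16 lower, with a median of -0.12 that turned to 0.12 with equal sums and to 0.02 without total RNA replicate 3, where 23 were higher and 18 lower. Of 23 genes of the translocon and secretory folding, 8 were lower and 1 higher, with a median of -0.14 that turned to 0.11 with equal sums. Of 9 genes of amino acid starvation and upstream reading frames, 2 were higher and 1 lower, or 2 and 3 without that library.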
